A study of Drosophila melanogaster with 72 samples.

Results

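The genes described here are 9 nuclear genes of mitochondrial quality control and mitochondrial DNA maintenance in Drosophila melanogaster, Pink1, park, Hsp60A, Lon, Sod2, TFAM, mtSSB, PolG1 and PolG2. They were chosen by name and function, by FlyBase symbol, from the 17324 features of the count table. Each male had 1 of 6 mitochondrial haplogroups. The haplogroups of Beijing lines are B38 and B39, that of an Ithaca line is I02, and those of Netherlands lines are N01, N02 and N23. His Y haplotype was likewise 1 of 6, with B04 and B11 taken from Beijing lines, N03 and N07 from Netherlands lines, and ZH23 and ZW139 from Zimbabwe lines. The source lines belong to the Global Diversity Lines, inbred strains founded from wild flies. Females of mitochondrial replacement lines were mated to males of Y replacement lines, and the sons of all 36 combinations share 1 nuclear background, per the series' design text. Separate crosses gave the 2 libraries of a combination, each of 10 whole males pooled at 3 to 5 days of age, and 12 of the 72 libraries carry any given haplotype. Because a son inherits his X chromosome from his mother together with her mitochondria, a haplogroup and the maternal X cannot be told apart in this design, which touches the X-linked genes Pink1 and Hsp60A.

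The mitochondrial genome encodes a small set of respiratory chain proteins and RNAs, and everything needed to copy it, read it and keep the organelle in repair is encoded in the nucleus. Pink1 is a kinase that builds up on damaged mitochondria, where it activates parkin, the ubiquitin ligase encoded by park, and so marks them for removal by autophagy. In the fly, loss of either gene leads to degenerating flight muscle and to male sterility with abnormal sperm mitochondria. Hsp60A is the chaperonin that folds proteins in the matrix, Lon is a matrix protease that degrades damaged proteins and, in fly cells, TFAM, and Sod2 is the manganese superoxide dismutase of the matrix. TFAM packages mitochondrial DNA and is needed for its transcription, mtSSB coats the single strands exposed during replication, and PolG1 and PolG2 are the catalytic and the accessory subunit of the mitochondrial DNA polymerase. The comparison of haplogroups and Y haplotypes asks whether expression of these genes differs with the mitochondrial DNA they serve or with the Y chromosome beside it.

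Of the 9 genes, 8 were detected in every library and tested, among 12470 genes in all. Of 20 tests of each of these genes (3 F tests, 12 single haplotypes, 4 population contrasts and batch), a difference was called in 2 cases. Pink1 was lower with B38 mitochondria than with the other haplogroups, and TFAM was lower in batch 2 than in batch 1. No gene of the set was called in the F tests across the 6 haplogroups, across the 6 Y haplotypes or of their interaction. The call for Pink1 was lost when the 6 libraries with the most reads aligned to several places were left out. With replicate number added to the fit as a block, Pink1 was called across haplogroups and Lon across Y haplotypes, so these absences of calls depend on the design.

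Between 2454024 and 7671784 reads per library were counted in genes, and the median library had 4792638. The share of reads aligned to several places was 9.68% to 35.5%, with a median of 12.3%. It was over 20% in 6 libraries, which are replicate 1 of mtB38_YB04, mtB38_YB11, mtB38_YN03, mtB38_YN07, mtI02_YN03 and mtN23_YB04. In these 6 libraries, Lon averaged 60.8 ± 22.8 CPM (read counts scaled to a common library total, mean ± SD), against 148.5 ± 49.98 CPM in the other 66. Pink1 averaged 102 ± 28.1 CPM in the 6 libraries and 154 ± 17.2 CPM in the other 66, while Sod2 averaged 209 ± 56.9 CPM in the 6 libraries and 168 ± 34.8 CPM in the other 66. Libraries of the same combination also differed within batch 1. In the 18 Beijing and Ithaca combinations, Lon averaged 195 ± 45.5 CPM in replicate 2 and 95.7 ± 46.9 CPM in replicate 1, and was higher in replicate 2 in 17 of 18, although the labels give both the same batch. Markers of flight muscle, testis, neurons, gut and fat body were all present, as whole males imply, with 10 of 10, 10 of 10, 8 of 8, 8 of 8 and 7 of 8 genes tested and none at 0 in all libraries. In whole flies, fewer cells of a type and less RNA per cell cannot be told apart.

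The depth behind the values differed between the genes. The number of reads per library was 273 to 1397 for Pink1, 101 to 486 for park, 92 to 428 for Hsp60A, 172 to 1391 for Lon and 364 to 1518 for Sod2. It was 102 to 323 for TFAM, 29 to 129 for mtSSB and 4 to 22 for PolG1, so that small differences of PolG1 were not detectable at this depth. Levels are given below within each gene and not between genes. The 3′ end, which these 3′ libraries read, is covered by a gene on the opposite strand in 4 of the 8 genes. CG44303 overlaps Pink1 over 340 bases, asRNA:CR45951 overlaps park over 1383 bases, CG9372 overlaps Lon over 512 bases and CG31287 overlaps mtSSB over 768 bases. The strand setting of the counting is not given in the sources used here, so reads of these pairs may not be separated. CG31287 had 103.5 CPM and CG9372 89.9 CPM over all libraries. How far the overlaps bear on the values of mtSSB and Lon was not tested.

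PolG2 had 0 reads in all 72 libraries, of 347393094 counts in all, which allows a level of up to 0.00864 CPM over the series, and of 0.391 to 1.22 CPM in a single library, for counting error alone. The gene lies at 2L:13831482-13833105 on the minus strand in the Ensembl annotation of BDGP6.54, which also gives the coordinates below. Its annotated span is the same as that of GatC, on the same strand, and GatC also had 0 reads. Of the protein-coding genes whose span lies inside another gene on the same strand, 333 of 867 (38.4%) had 0 reads in every library, against 214 of 12967 (1.65%) of the others. The library files also count reads that lay in more than 1 gene, 2.39% to 3.24% of the reads per library. Whether reads of PolG2 were among them was not tested, and the 0 is therefore not a statement about expression.

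**Figure D1:**
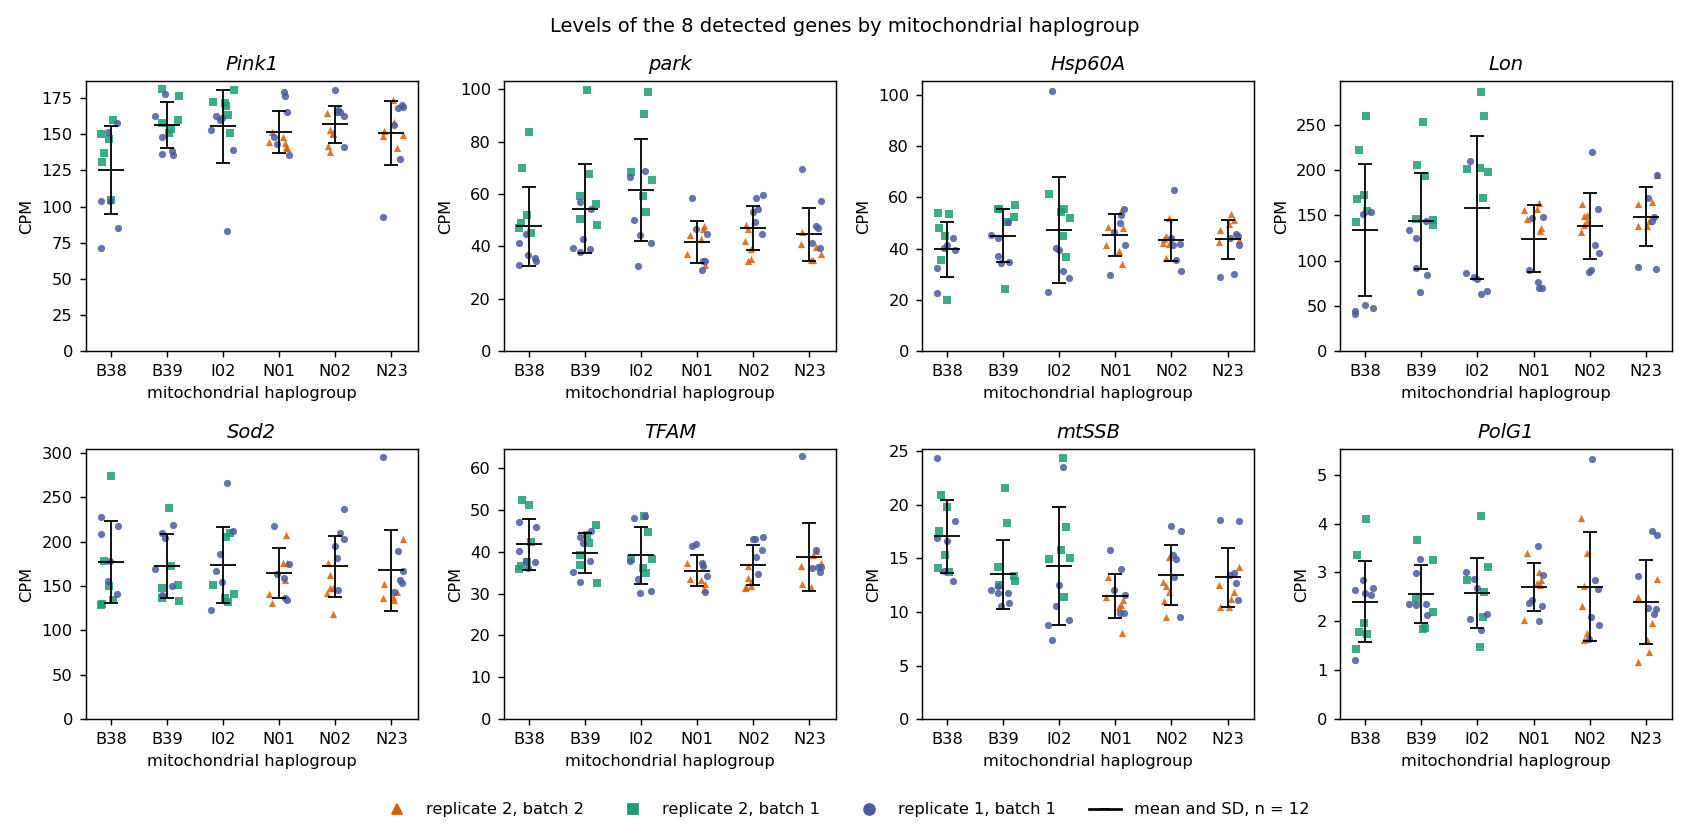
CPM of the 8 detected genes by mitochondrial haplogroup. Each point is 1 library, marked by replicate and batch, and bars are the mean and SD of 12 libraries; the mean of Pink1 is 125 CPM with B38 and 151 to 157 CPM with the other haplogroups.

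Across haplogroups, 254 of 12470 genes (2.04%) were called by the edgeR quasi-likelihood F test at a Benjamini-Hochberg adjusted p under 0.05, and 0 of the 8 genes of the set. At an unadjusted p under 0.05 it was 1988 of the 12470 genes, and 1 of the 8, Pink1 (F = 2.58, edgeR adjusted p = 0.288). DESeq2 called 652 genes and limma-voom 189, with 0 of the 8 in each. With the replicate block Pink1 was called (F = 4.38, edgeR adjusted p = 0.0293), in a fit that called 1639 of 12470 genes. The median F of the 8 genes was 0.736, and that of all genes 1.13. The haplogroup held 23.5% of the variance of log2 CPM of Pink1, 13.4% of mtSSB and 11.2% of park, where the median gene had 7.38%. Shares of variance were taken in sequence with batch first, and the haplogroup takes up 7.04% of the degrees of freedom. For Sod2 the share was 1.10%, and its means lay between 165 and 177 CPM in all 6 haplogroups.

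Pink1 (X:6683798-6687302, plus strand), the kinase that starts mitophagy, had 71.3, 134 and 160 CPM as its lowest, median and highest value in the 12 B38 libraries, against 83.4, 153 and 181 CPM in the 60 others. The means were 125 ± 30.2 CPM with B38 and 154 ± 18.3 CPM in the others. The groups overlap, and the lowest B38 library is the lowest of the series. The difference was -0.32 ± 0.09 on the log2 scale (SE), with an edgeR adjusted p of 0.0219. It is read against 2.88% of all genes called lower in B38, and 9.73% called in either direction, the highest share of the 6 haplogroups. That count of 1213 genes was itself unstable, at 50 of 12683 without the 6 libraries above 20% in reads aligned to several places and 146 to 2477 without single libraries. It moved by over 1.5 times without replicate 1 of mtB38_YB04, mtB38_YB11, mtB38_YN03, mtB38_YN07 or mtB38_YZH23, and without replicate 2 of mtB38_YB04, mtB38_YB11, mtB38_YN03 or mtB38_YZW139. Within B38, the 4 libraries above 20% in reads aligned to several places had 71.3, 85.3, 104 and 104 CPM. The other 8 B38 libraries had 105 to 160 CPM, and only mtB38_YZW139 replicate 2 of these lay below 131 CPM. Without the 6 libraries of that kind in the series, the difference was -0.16 with an edgeR adjusted p of 0.494, and in batch 1 alone it was -0.33 with an edgeR adjusted p of 0.128. The 4 B38 libraries also had the summed neuron markers at 1149, 1009, 962 and 755 CPM, against 503 to 702 CPM in the other 8 and a median of 586 CPM in all 72. The part of neuronal RNA and of the alignment in the difference was not tested.

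Leaving out single libraries also bears on the call for Pink1. It was lost without any 1 of mtB38_YB04 replicate 1 (-0.26, edgeR adjusted p = 0.115), mtB38_YB11 replicate 1 (-0.26, 0.143), mtB38_YN03 replicate 1 (-0.28, 0.0919), mtB38_YN07 replicate 1 (-0.30, 0.087) and mtB38_YZW139 replicate 2 (-0.29, 0.0843). The sign was the same in all 72 fits that left out 1 library, with differences of -0.41 to -0.26.

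The gene park (3L:21194754-21196853, minus strand), the ubiquitin ligase that acts with Pink1, had its highest mean with I02, at 61.6 ± 19.3 CPM, against 47.1 ± 12.6 CPM in the 60 other libraries. The 12 I02 libraries had 32.6, 62.3 and 98.8 CPM as lowest, median and highest value, and the other 60 had 30.9, 45.1 and 99.7 CPM. The range of the I02 libraries lies within that of the others, so the groups overlap fully. The difference was 0.33 ± 0.12 on the log2 scale and did not pass, with an edgeR adjusted p of 0.262. The order of means was I02, B39, B38, N02, N23 and N01, from 61.6 to 41.8 CPM, and no neighbours in it differed by more than 1 SD.

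The mtDNA maintenance genes showed 1 further contrast near the threshold. mtSSB (3R:16204194-16205250, minus strand) had 17.0 ± 3.42 CPM with B38, against 13.2 ± 3.48 CPM in the 60 other libraries. The B38 libraries had 12.9, 16.7 and 24.3 CPM as lowest, median and highest value, and the others 7.39, 12.4 and 24.3 CPM. No B38 library lay below the median of the others, but the ranges overlap in their upper part. The difference of 0.30 ± 0.12 on the log2 scale had an edgeR adjusted p of 0.0947, and was called in the fit without a batch term. TFAM (3R:20575245-20577010, minus strand) ranged in its means from 35.5 ± 3.68 CPM with N01 to 41.7 ± 5.99 CPM with B38, and PolG1 (2L:13823980-13827772, minus strand) from 2.39 ± 0.853 CPM with N23 to 2.70 ± 1.11 CPM with N02. For TFAM no haplogroup differed from the rest by more than 0.08 on the log2 scale, and for PolG1 by more than 0.18.

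No haplogroup contrast passed for the matrix chaperone, the protease or the superoxide dismutase. Hsp60A (X:11108482-11112308, plus strand) had means of 39.7 ± 10.7 CPM with B38 to 47.3 ± 20.6 CPM with I02. Its SD with I02 rests on mtI02_YZW139 replicate 1, the library with the highest Hsp60A value of the series at 101 CPM, while its partner had 44.9 CPM. Lon (3L:19607857-19612199, minus strand) had means of 124 ± 36.7 CPM with N01 to 158.5 ± 79.3 CPM with I02. Sod2 (2R:16772785-16773915, minus strand) differed least, with the largest of its 6 contrasts at 0.07 ± 0.10 on the log2 scale (N02).

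Taking the single haplogroups together, 0.0642% of all genes were called for B39, 0.401% for I02, 0.0401% for N01, 0.0241% for N02 and 0.144% for N23. None of the 8 genes was called in these 5 contrasts, where 1 of 40 gene tests had an unadjusted p under 0.05, that of park with I02. With I02, 96.3% of all genes had a larger p than park (edgeR unadjusted p = 0.00964).

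**Figure D2:**
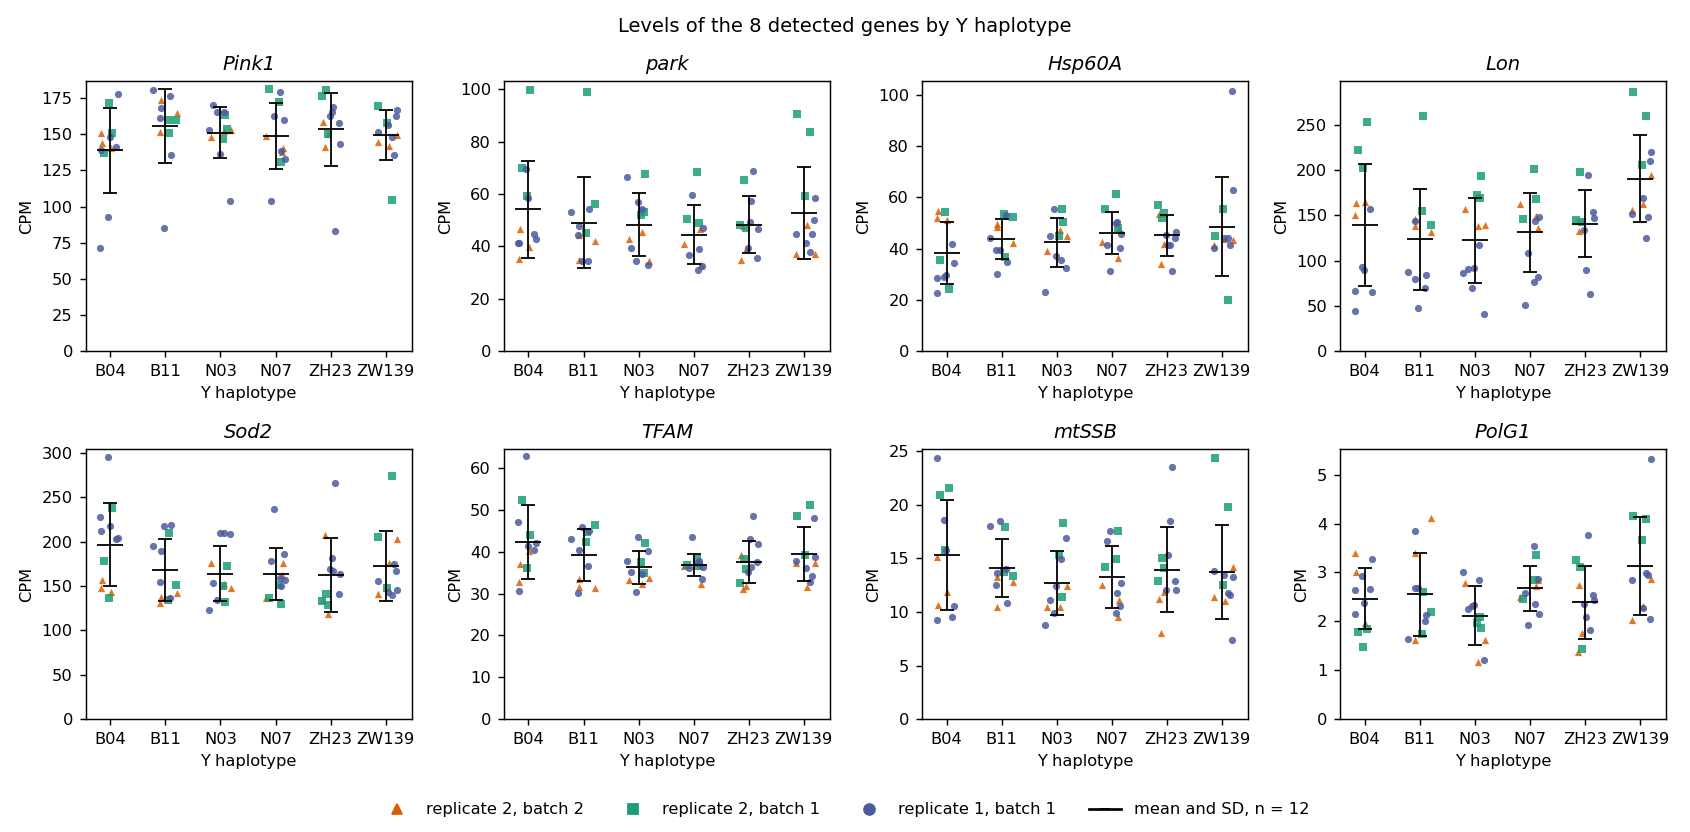
CPM of the 8 detected genes by Y haplotype. Each point is 1 library, marked by replicate and batch, and bars are the mean and SD of 12 libraries; Lon has its highest mean, 190.5 CPM, with ZW139, and its lowest, 122 CPM, with N03.

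Across Y haplotypes, 517 genes (4.15%) were called by edgeR, and 0 of the 8 genes of the set. At an unadjusted p under 0.05 it was 2481 of the 12470 genes, and 0 of the 8. DESeq2 called 875 genes and limma-voom 444, with 0 of the 8 in each. With the replicate block Lon was called (F = 5.26, edgeR adjusted p = 0.0192), in a fit that called 929 of 12470 genes. The median F was 1.21 for the 8 genes and 1.40 for all genes. Of the single Y haplotypes, 0.0561% of genes were called for B04, 2.46% for B11, 0.152% for N03, 0.016% for N07, 1.36% for ZH23 and 0.168% for ZW139. None of the 8 genes was called in these 6 contrasts, and the unadjusted p was under 0.05 in 3 of 8 for B04 and 2 of 8 for ZW139. Many other genes had unadjusted p-values as small. Hsp60A with B04 (edgeR unadjusted p = 0.0433) had a smaller p than 80.5% of all genes, and PolG1 with ZW139 (0.0235) than 89.7%. These counts are therefore not read as particular to the set.

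Lon, the protease, had the widest difference. With ZW139 it had 125, 182 and 286 CPM as lowest, median and highest value of 12 libraries, against 41.5, 141 and 259 CPM in the 60 others. The means were 190.5 ± 48.01 CPM with ZW139 and 131 ± 49.9 CPM in the others. All ZW139 libraries lay above 125 CPM, but the upper ends of the groups overlap. The difference was 0.55 ± 0.20 on the log2 scale with an unadjusted p of 0.00918 and an edgeR adjusted p of 0.166. It was called with the replicate block, which called 368 of 12470 genes for ZW139. In the order of means by Y (ZW139, ZH23, B04, N07, B11, N03), the step from ZW139 to ZH23, at 141 ± 37.1 CPM, was the 1 step over 1 SD among the Y and haplogroup orders of all 8 genes. PolG1, the polymerase subunit, was highest with the same Y, at 3.13 ± 1.00 CPM with ZW139 against 2.44 ± 0.672 CPM in the others (0.34 ± 0.14 on the log2 scale, edgeR adjusted p = 0.229). None of the 6 libraries above 20% in reads aligned to several places carried ZW139. With Lon at 60.8 CPM on average in those 6, they lie in the group ZW139 was compared with. Their part in the difference was not tested beyond the fit without them, which called no gene of the set in the haplotype tests.

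Y haplotype B04 had the lowest Hsp60A and Pink1 means and the highest Sod2, TFAM, park and mtSSB means. Sod2, the matrix superoxide dismutase, had 136, 203 and 296 CPM as lowest, median and highest value with B04, against 118, 156 and 274 CPM in the 60 other libraries. The B04 group is shifted up and overlaps the others over most of its range (0.24 ± 0.10 on the log2 scale, edgeR adjusted p = 0.171). Hsp60A had 22.8, 34.9 and 54.8 CPM with B04, against 19.9, 44.3 and 101 CPM in the others (-0.25 ± 0.12, edgeR adjusted p = 0.222). TFAM had 30.6, 40.9 and 62.9 CPM with B04, against 30.2, 37.0 and 51.2 CPM in the others (0.14 ± 0.06, edgeR adjusted p = 0.177). None of these differences passed. Of the 6 libraries with the most reads aligned to several places, mtB38_YB04 replicate 1 and mtN23_YB04 replicate 1 carried B04, and mtN23_YB04 replicate 1 held the highest Sod2 and TFAM values of the series. Means of Pink1 by Y ran from 139 ± 29.7 CPM with B04 to 156 ± 25.4 CPM with B11, those of park from 44.5 ± 11.4 CPM with N07 to 54.1 ± 18.5 CPM with B04, and those of mtSSB from 12.7 ± 2.99 CPM with N03 to 15.3 ± 5.12 CPM with B04.

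For the interaction of haplogroup and Y haplotype, the epistasis named in the title of the series, edgeR called 0 of 12470 genes (0%). At an unadjusted p under 0.05 it was 239 genes, edgeR called 0 to 34 without single libraries, limma-voom called 0, and DESeq2 called 10 of the 11503 genes to which it gave an adjusted p. None of the 8 genes of the set was among any of these, and all 8 had an edgeR adjusted p of 1. TFAM had the highest F, 1.34, with an unadjusted p of 0.196, and the interaction held 40.0% of its variance against 25.2% for the median gene. The range for the other 7 genes was 9.08% for Lon to 33.5% for Hsp60A. The interaction takes up 35.2% of the degrees of freedom, so the share of TFAM alone is not read as an interaction. The 2 libraries of mtN23_YB04 had TFAM at 40.2 and 62.9 CPM, the widest gap among the 36 combinations, where the median fold between the 2 libraries of a combination was 1.10 for TFAM.

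The spread between the 2 libraries of a combination was widest for Lon. The median fold between them was 1.64, and reached 4.96 in mtB38_YB04, whose libraries had 44.7 and 222 CPM. Much of this spread had 1 direction, since Lon was higher in replicate 2 in 30 of 36 combinations. With the replicate block, the replicate term of Lon was 1.15 ± 0.14 on the log2 scale, and Lon was called across Y haplotypes. Of the variance of Lon, 66.55% lay between libraries of the same combination, against 45.03% for the median gene and 49.3% of the degrees of freedom. The median fold was 1.12 for Pink1, 1.28 for park, 1.33 for Hsp60A, 1.30 for Sod2, 1.29 for mtSSB and 1.44 for PolG1. Over all 72 libraries the highest value was 6.885 times the lowest for Lon, 5.07 for Hsp60A, 4.57 for PolG1, 3.29 for mtSSB, 3.22 for park, 2.54 for Pink1, 2.50 for Sod2 and 2.09 for TFAM.

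Grouping haplotypes by the population they came from gave no call in the set. Between Beijing and Netherlands mitochondria 0.305% of genes were called, between Beijing and Netherlands Y chromosomes 3.16%, between Zimbabwe and other Y chromosomes 0.0321%, and between pairs from the same population and mixed pairs 0%. Pink1 averaged 141 ± 28.5 CPM with Beijing mitochondria (24 libraries) and 153 ± 16.7 CPM with Netherlands mitochondria (36 libraries), a difference of -0.16 ± 0.08 on the log2 scale with an edgeR adjusted p of 0.499. TFAM averaged 40.8 ± 7.62 CPM with Beijing Y chromosomes and 36.6 ± 3.34 CPM with Netherlands Y chromosomes (24 libraries each). Its difference was 0.14 ± 0.06 with an unadjusted p of 0.0144 and an edgeR adjusted p of 0.125. Lon averaged 165.5 ± 49.1 CPM with Zimbabwe Y chromosomes, 131 ± 61.0 CPM with Beijing and 127 ± 44.1 CPM with Netherlands Y chromosomes. Its difference between Zimbabwe and the others was 0.36 ± 0.16 with an edgeR adjusted p of 0.427. This contrast shares its libraries with that of ZW139 above, since ZH23 averaged 141 CPM. Between same-population and mixed pairs, the largest difference was that of Hsp60A, at 40.9 ± 9.17 CPM in same-population pairs and 44.3 ± 8.62 CPM in mixed pairs (-0.16 ± 0.12), and 0 of the 8 genes had an unadjusted p under 0.05.

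**Figure D3:**
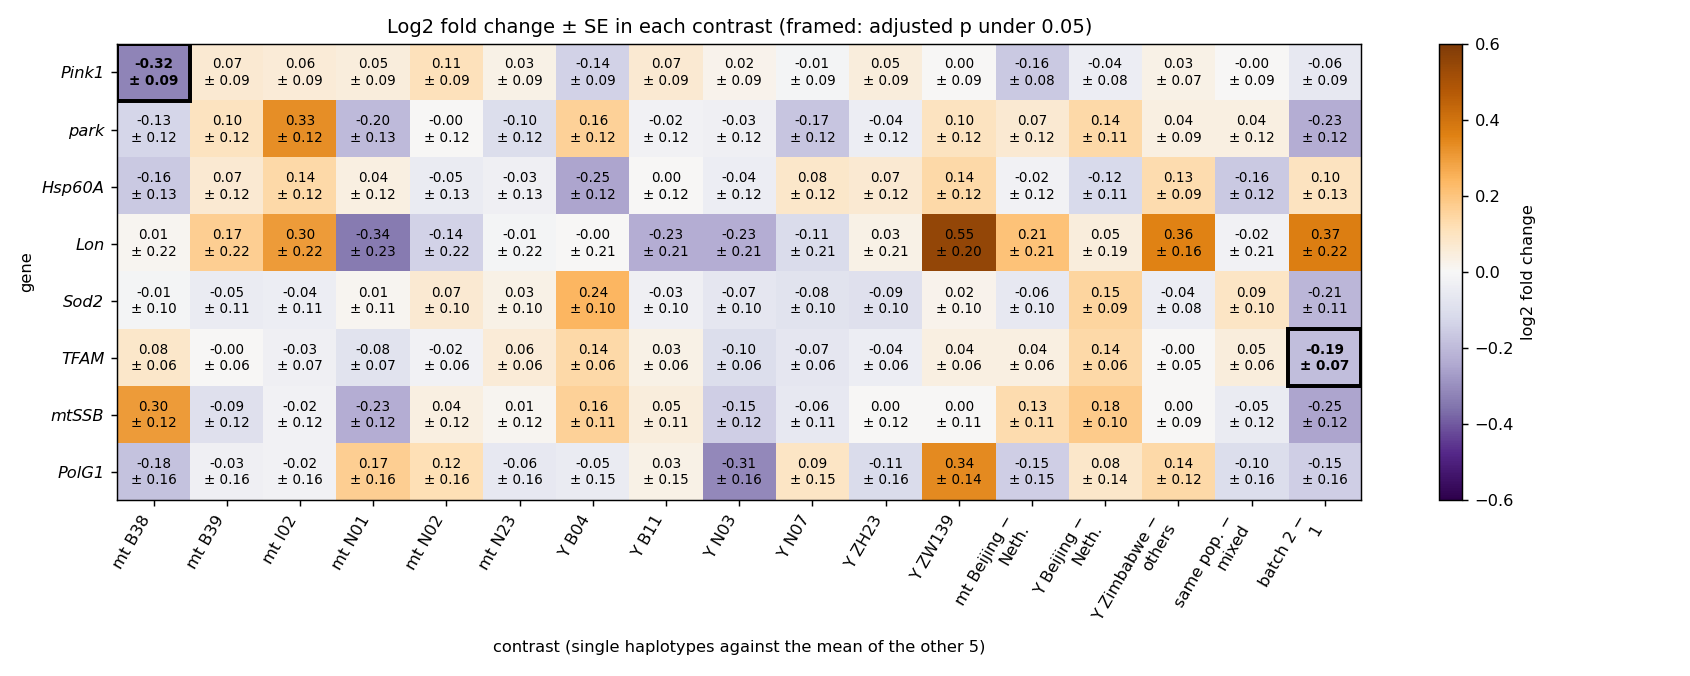
Log2 fold change ± SE of the 8 genes in the 12 haplotype contrasts, 4 population contrasts and the batch contrast. Colour gives the log2 fold change, and frames mark the 2 differences called by edgeR, Pink1 with B38 (-0.32) and TFAM in batch 2 (-0.19).

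The batch term compares batch 2, which holds replicate 2 of every N01, N02 and N23 combination, with batch 1, and rests on the 18 combinations that have a library in each. There, batch and replicate number cannot be told apart. In all, 3648 genes (29.3%) were called, 14.6% as lower in batch 2. Of the 8 genes, TFAM was called, with 31.2, 33.3 and 40.2 CPM as lowest, median and highest value in the 18 batch 2 libraries, against 30.5, 38.1 and 62.9 CPM in their 18 batch 1 partners. The means were 34.4 ± 2.92 CPM in batch 2 and 39.6 ± 6.84 CPM in batch 1, and TFAM was higher in batch 2 in 5 of the 18 combinations. The groups overlap, with the lowest values of both close together. The difference was -0.19 ± 0.07 on the log2 scale, with an edgeR adjusted p of 0.0267, and the median difference of the 8 genes was 0.20 in size, against 0.24 for all genes. Leaving out 1 library ended the call in 9 of 72 fits, with differences of -0.21 to -0.15 and edgeR adjusted p-values of 0.0183 to 0.082. The libraries concerned were replicate 1 of mtN01_YZH23, mtN02_YB11, mtN02_YN07 and mtN02_YZH23, and replicate 2 of mtN02_YB04, mtN02_YB11, mtN02_YZH23, mtN23_YB04 and mtN23_YB11. Of the others, mtSSB had -0.25 ± 0.12 (edgeR adjusted p = 0.121), park -0.23 ± 0.12 (0.153), Sod2 -0.21 ± 0.11 (0.131) and Lon 0.37 ± 0.22 (0.218). These values depend on the replicate term. With the replicate block Lon turned to -0.78 (edgeR adjusted p = 0.00211), park came to -0.77 (1.27e-05), mtSSB to -0.54 (0.00601) and Pink1 to -0.30 (0.0382), all called, so no direction is read for Lon. In that fit 4718 of 12470 genes were called for batch. Summed neuron markers were 729 CPM in the median of the batch 2 libraries and 554 CPM in that of their partners, and 5 of the 8 neuron markers were called higher in batch 2. Their part in the difference of TFAM was not tested.

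For other genes of the same functions, lists without the 9 genes were drawn up for replication and transcription of mitochondrial DNA (14 genes tested of 19 listed), mitophagy and mitochondrial dynamics (23 of 26), mitochondrial chaperones and proteases (18 of 19), antioxidant enzymes (12 of 15) and regulators of mitochondrial biogenesis and stress (10 of 12), of which HtrA2, a protease of the intermembrane space, is in 2 lists. None of these genes was called between haplogroups or for the interaction. Between Y haplotypes 1 was called, Prx3, a mitochondrial peroxiredoxin that removes hydrogen peroxide, with means of 38.8 CPM with ZW139 to 51.0 CPM with B11 (F = 4.72, edgeR adjusted p = 0.0435). The median F between haplogroups was 0.918, 0.780, 1.07, 0.776 and 1.31 in the 5 lists in the order above, against 1.13 for all genes. Between Y haplotypes it was 0.905, 1.38, 1.63, 1.36 and 0.714, against 1.40 for all genes.

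In the batch term, where 29.3% of all genes were called, 3 of 14 genes of mitochondrial DNA replication and transcription were called. The transcription termination factor mTTF had -0.43 ± 0.10 and the transcription factor mtTFB2 -0.57 ± 0.16 (lower in batch 2), and the mitochondrial poly(A) polymerase MTPAP had 0.51 ± 0.20. Of the mitophagy list, 6 of 23 were called, 2 higher and 4 lower in batch 2. They include the ubiquitin ligase Mul1 (-0.46 ± 0.10), the transport GTPase Miro (-0.34 ± 0.08), the autophagy kinase Atg1 (0.52 ± 0.13) and the fission adaptor Fis1 (0.72 ± 0.20). Of the chaperones and proteases, 5 of 18 were called, 1 higher and 4 lower, with the prohibitin Phb2 at -0.35 ± 0.10 and the chaperonin paralog Hsp60C at -0.28 ± 0.08. The protease YME1L was higher (0.26 ± 0.09), and CG9920, whose product resembles the Hsp10 co-chaperonin, was lower (-0.59 ± 0.22). Of the antioxidant enzymes, 6 of 12 were called, 1 higher and 5 lower, and 4 of the lower ones are the superoxide dismutases Sod3 (-0.39 ± 0.07) and Sod1 (-0.50 ± 0.09), the glutathione synthesis subunit Gclm (-0.37 ± 0.08) and Prx3 (-0.23 ± 0.07). Of the regulators, 5 of 10 were called, 4 higher and 1 lower. The nuclear receptor ERR was lower (-0.47 ± 0.10), while the PGC-1 homolog srl (0.67 ± 0.17), the ATF4 homolog crc (0.51 ± 0.14) and the NRF1 homolog ewg (0.47 ± 0.13) were higher.

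**Figure D4:**
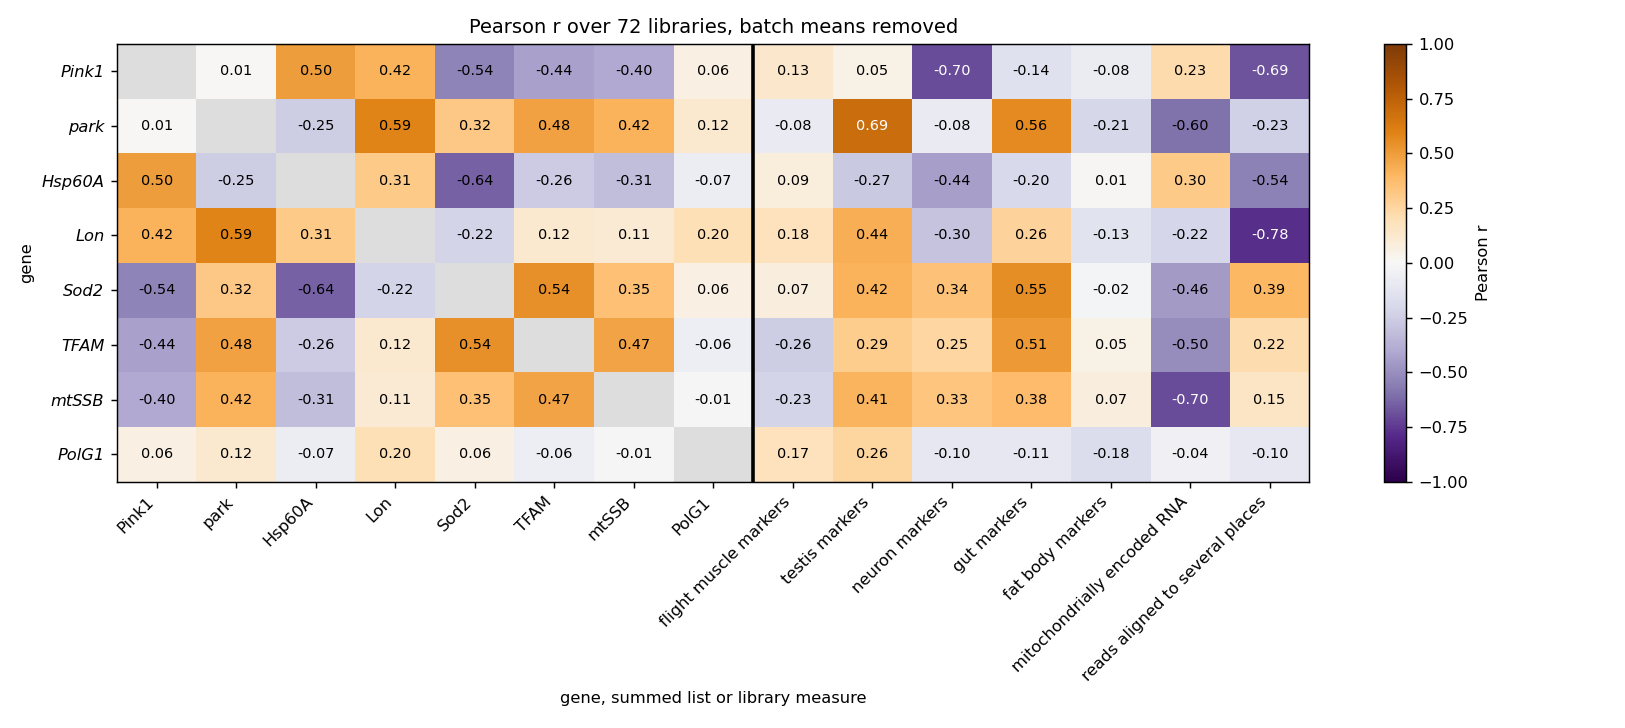
Pearson r of log2 CPM over 72 libraries, after the mean of each batch was removed, between the 8 genes (left) and between each gene and summed marker lists, summed mitochondrially encoded RNA and the share of reads aligned to several places (right). Sod2 has -0.64 with Hsp60A and 0.54 with TFAM, and Lon has -0.78 with the share of reads aligned to several places.

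Although few haplotype differences were called, many pairs of the genes were correlated across libraries. The share of all gene pairs that pass the same rule was not computed. The counts of correlations here and below are therefore not read as particular to the set. Correlations were taken over 72 libraries of log2 CPM after the mean of each batch was removed, for 28 pairs, with permutation p-values of 100000 resamples adjusted over the 28. The permutations shuffled all libraries freely and kept neither the combination nor the replicate number of a library. Here and below, their p-values cannot tell a relation between genes from a shift shared between replicates. Of the 28 pairs, 15 had an adjusted p under 0.05. Pink1 and park, which act in 1 pathway, had no detectable relation over all libraries (r = 0.007, rho = -0.015, permutation p = 0.953 and 0.904, adjusted 0.953 and 0.904). Removing the 2 libraries farthest from the median of Pink1 gave 0.021, and batch 1 gave 0.023. Without the 6 libraries above 20% in reads aligned to several places r was -0.253 (permutation p adjusted over the 28 pairs 0.0794), and it was -0.382 within batch 2, with -0.067 in the 36 first replicates and -0.243 in the second replicates of batch 1.

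Sod2 and Hsp60A had the lowest correlation (r = -0.643, rho = -0.704, permutation p = 1e-05 for both, the smallest that the resamples can give, adjusted 7e-05 and 0.00028). It was -0.666 without the 2 libraries farthest from the median, -0.671 within batch 1 and -0.417 within batch 2. Of all tested genes, 1.27% had a lower r with Hsp60A, and 4.11% had a lower r with Sod2. The genes park and Lon had r = 0.587 (rho = 0.458, permutation p = 1e-05 and 4e-05, adjusted 7e-05 and 0.00035), 0.534 without 2 libraries, 0.608 within batch 1 and 0.088 within batch 2, and 0.284 in the 36 first replicates alone. Here 96.04% of all genes had a lower r with park, and 93.03% had a lower r with Lon. TFAM and Sod2 had r = 0.542 (rho = 0.470, permutation p = 1e-05 and 5e-05, adjusted 7e-05 and 0.00035), 0.488 without 2 libraries, 0.627 within batch 1 and -0.120 within batch 2. TFAM and mtSSB, which both bind mitochondrial DNA, had r = 0.472 (rho = 0.449, permutation p = 3e-05 and 8e-05, adjusted 0.000168 and 0.000448), 0.430 without 2 libraries, 0.504 within batch 1 and 0.154 within batch 2. Within the 18 libraries of batch 2 alone, 0 of the 28 pairs had an adjusted p under 0.05, so the relations of park with Lon and of TFAM with Sod2 were not seen there.

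Pink1 had r = 0.498 with Hsp60A (rho = 0.471, permutation p = 4e-05 and 3e-05, adjusted 0.000187 and 0.00035), with 0.417 without 2 libraries, 0.509 within batch 1 and 0.292 within batch 2. It had r = -0.538 with Sod2 (rho = -0.422, permutation p = 1e-05 and 0.00028, adjusted 7e-05 and 0.00131), with -0.478 without 2 libraries, -0.558 within batch 1 and -0.436 within batch 2. Of all genes, 88.46% had a lower r with Pink1 than Hsp60A had, and 9.945% had a lower r with it than Sod2 had. The r of Pink1 and Lon, 0.416 (rho = 0.164, permutation p = 0.00029 and 0.169, adjusted 0.000868 and 0.278), became 0.013 without the 6 libraries with the most reads aligned to several places, and rests on them. PolG1, with 4 to 22 reads per library, had r between -0.070 and 0.201 with the other genes, none with an adjusted p under 0.05.

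**Figure D5:**
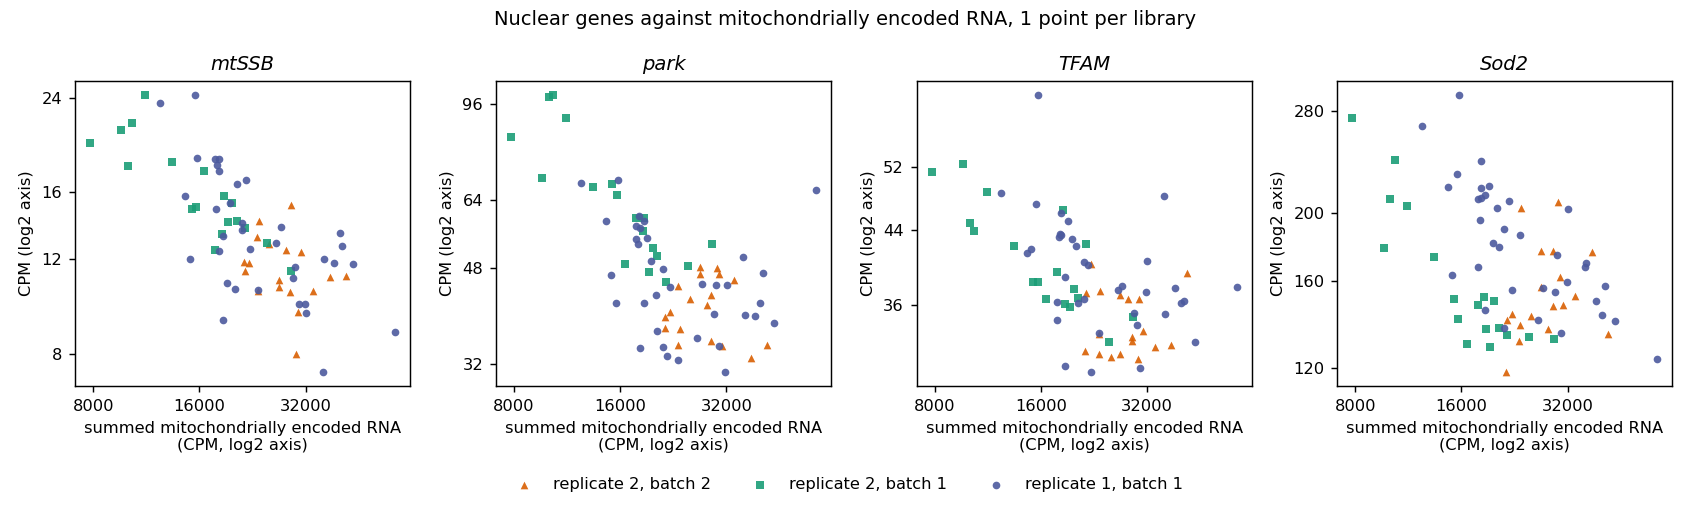
CPM of mtSSB, park, TFAM and Sod2 against the summed CPM of 15 mitochondrially encoded genes, both on log2 axes, 1 point per library marked by replicate and batch. The lowest mitochondrial sum, 7856 CPM in mtB38_YZW139 replicate 2, goes with 19.8 CPM of mtSSB, 83.5 of park, 51.2 of TFAM and 274 of Sod2, and the correlation is weaker among the 18 libraries of batch 2.

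The 15 genes encoded in the mitochondrial DNA itself summed to 7856 to 57386 CPM per library, with a median of 21508 CPM. In a family of 8 relations, their sum correlated negatively with 4 nuclear genes and positively with Hsp60A, at r = 0.305 (rho = 0.245, permutation p = 0.00949 and 0.0387, adjusted 0.0152 and 0.0619; 0.159 without 2 libraries). For mtSSB, r was -0.702 (rho = -0.685, permutation p = 1e-05 for both, adjusted 4e-05 and 2.67e-05), -0.697 without the 2 farthest libraries, -0.738 within batch 1 and -0.278 within batch 2. In the 2 libraries with the lowest mitochondrial sums, mtB38_YZW139 replicate 2 (7856 CPM) and mtB38_YB04 replicate 2 (9621 CPM), mtSSB had 19.8 and 20.9 CPM, against 8.76 CPM in mtI02_YN03 replicate 1, the library with the highest sum (57386 CPM). For park, r was -0.598 (rho = -0.576, permutation p = 1e-05 for both, adjusted 4e-05 and 2.67e-05), -0.532 without 2 libraries, -0.631 within batch 1 and -0.126 within batch 2. In the 36 first replicates it was -0.314 for park, against -0.850 in the 18 second replicates of batch 1. The other 3 genes had -0.641 (mtSSB), -0.437 (TFAM) and -0.705 (Sod2) in the first replicates, and -0.865, -0.820 and -0.888 in the second replicates of batch 1. For TFAM, r was -0.502 (rho = -0.509, permutation p = 4e-05 and 1e-05, adjusted 8e-05 and 2.67e-05), -0.477 without 2 libraries, -0.544 within batch 1 and -0.022 within batch 2. For Sod2, r was -0.455 (rho = -0.352, permutation p = 2e-05 and 0.0029, adjusted 5.33e-05 and 0.0058), -0.396 without 2 libraries, -0.531 within batch 1 and 0.246 within batch 2. The negative relation was thus not seen within batch 2 for TFAM and Sod2, and 3′ libraries of polyadenylated RNA measure the mitochondrial transcripts only in part. Of the 15 genes, 1 was called between haplogroups, mt:ND3, a complex I subunit, with means of 3.69 CPM with N02 to 17.8 CPM with N01 (F = 9.98, edgeR adjusted p = 0.00154). Between Y haplotypes 1 was called, the large ribosomal RNA mt:lrRNA, with means of 1447 CPM with B04 to 4505 CPM with N03 (F = 4.81, edgeR adjusted p = 0.0409), and none for the interaction. In batch 2, 4 of 15 were called, all higher, with mt:lrRNA at 1.67 ± 0.45, mt:Cyt-b at 0.82 ± 0.31, mt:CoIII at 0.69 ± 0.25 and mt:ND4L at 0.39 ± 0.13 on the log2 scale.

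Of 40 relations between the 8 genes and 5 tissue marker lists, 14 had an adjusted p under 0.05, and PolG1 alone had none. The gene park had r = 0.694 with the summed testis markers (rho = 0.605, permutation p = 1e-05 for both, adjusted 0.0001 and 0.0002), with 0.634 without 2 libraries, 0.740 within batch 1 and 0.278 within batch 2. Lon had 0.437 with the same markers (rho = 0.353, permutation p = 0.00026 and 0.00243, adjusted 0.00149 and 0.0121), with 0.434 without 2 libraries, 0.443 within batch 1 and 0.639 within batch 2, but 0.001 in the 36 first replicates alone, so it was not seen there. Pink1 had -0.703 with the neuron markers (rho = -0.546, permutation p = 1e-05 for both, adjusted 0.0001 and 0.0002), with -0.628 without 2 libraries, -0.738 within batch 1 and 0.307 within batch 2. With the gut markers park had 0.563 (rho = 0.537, permutation p = 1e-05 and 3e-05, adjusted 0.0001 and 0.00024), 0.477 without 2 libraries and -0.051 within batch 2. Sod2 had 0.554 with them (rho = 0.466, permutation p = 1e-05 and 4e-05, adjusted 0.0001 and 0.000267), 0.475 without 2 libraries and 0.362 within batch 2. TFAM had 0.512 (rho = 0.479, permutation p = 2e-05 for both, adjusted 0.00016 and 0.0002), 0.469 without 2 libraries and -0.240 within batch 2. No gene had an adjusted p under 0.05 with flight muscle or fat body markers. Hsp60A had -0.444 with the neuron markers (rho = -0.468, permutation p = 0.00015 and 2e-05, adjusted 0.001 and 0.0002), -0.450 without 2 libraries and 0.003 within batch 2. mtSSB had 0.414 with the testis markers (rho = 0.338, permutation p adjusted 0.00151 and 0.0179), 0.408 without 2 libraries, 0.168 in the first replicates and 0.025 within batch 2. It also had 0.380 with the gut markers (permutation p adjusted 0.00368) and 0.330 with the neuron markers (0.0154), with -0.288 and 0.270 within batch 2. Sod2 had 0.418 with the testis markers (permutation p adjusted 0.00151) and 0.345 with the neuron markers (0.0105), with 0.542 and -0.372 within batch 2. TFAM with the testis markers (0.295, permutation p adjusted 0.0328) and Lon with the neuron markers (-0.296, 0.0328) did not pass by rho, nor did mtSSB with the neuron markers. The testis markers summed to 2182 to 4828 CPM per library, the neuron markers to 358 to 1149 CPM, the gut markers to 7563 to 31651 CPM, the flight muscle markers to 1934 to 4955 CPM and the fat body markers to 1249 to 4208 CPM. The part of tissue composition in the values of park, Lon, Pink1, Hsp60A, Sod2, TFAM and mtSSB was not tested.

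The marker lists were also called in part. Between haplogroups it was 1 of 8 neuron markers (elav), 2 of 8 gut markers (the proteases Jon25Bi and Jon66Ci) and 0 of the 10 testis, 10 flight muscle and 7 fat body markers. Between Y haplotypes it was 3 of 8 gut markers (Jon66Ci, LManII and Amy-p), 2 of 7 fat body markers (FASN1 and apolpp) and 0 of the others, and for the interaction 0 of all. In the batch term 3 of 10 flight muscle markers (bt, fln and TpnC41C) were higher in batch 2. Of the 10 testis markers dj and fzo were higher and Mst98Ca was lower. Neuron markers were higher in 5 of 8 (elav, nSyb, Syx1A and Rdl among them) and fat body markers in 3 of 7 (bmm, apolpp and Lpin). Gut markers were lower in 2 of 8 (betaTry and Mal-A1). Jon25Bi was the 1 marker called between Beijing and Netherlands mitochondria, at 0.86 ± 0.19 on the log2 scale.

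The share of reads aligned to several places went with 4 of the 8 genes, in a family of 8 relations. Lon had r = -0.779 with it (rho = -0.789, permutation p = 1e-05 for both, adjusted 2.67e-05 and 4e-05), with -0.725 without 2 libraries, -0.785 within batch 1 and -0.371 within batch 2. Pink1 had -0.687 (rho = -0.390, permutation p = 1e-05 and 0.00074, adjusted 2.67e-05 and 0.00148), with -0.598 without 2 libraries, -0.709 within batch 1 and 0.429 within batch 2. Hsp60A had -0.541 (rho = -0.632, permutation p = 1e-05 for both, adjusted 2.67e-05 and 4e-05), -0.617 without 2 libraries and -0.360 within batch 2. Sod2 had 0.393 (rho = 0.451, permutation p = 0.00084 and 7e-05, adjusted 0.00168 and 0.000187), 0.387 without 2 libraries and -0.178 within batch 2. In the second replicates of batch 1, r was -0.590 for Pink1, -0.680 for Hsp60A and 0.517 for Sod2. For Lon it was 0.204 there and -0.766 in the first replicates, so its negative relation was not seen in the second replicates of batch 1. For the pairs on opposite strands, 3 relations were computed. Lon had r = 0.675 with CG9372 (rho = 0.545, permutation p = 1e-05 for both, adjusted 1.5e-05 and 3e-05), 0.609 without 2 libraries and -0.368 within batch 2. mtSSB had 0.556 with CG31287 (rho = 0.444, permutation p = 1e-05 and 0.00017, adjusted 1.5e-05 and 0.000255), 0.505 without 2 libraries and 0.081 within batch 2. Pink1 had 0.351 with CG44303 (rho = 0.098, permutation p = 0.00291 and 0.411, adjusted 0.00291 and 0.411), 0.213 without 2 libraries and -0.586 within batch 2.

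Every gene averaging a log2 CPM of 2 or more was ranked by its Pearson r with each of the 8 genes, over 72 libraries and after removal of batch means. This is a description, since the libraries share depth and batch. Lon had the closest likeness, with und at 0.964, CG1620 at 0.953 and CG4270 at 0.947, and at 0.950, 0.928 and 0.949 without the 6 libraries with the most reads aligned to several places. Pink1 was closest to Adi1 (0.907), RpS3A (0.889) and RpL23A (0.876), the last of which came to 0.701 without the 6 libraries. The gene park was closest to CG8635 (0.900), ms(2)35Ci (0.857) and Den1 (0.843), and mtSSB to Atg4a (0.785), ksh (0.752) and f-cup (0.747). The 3 genes closest to Sod2 encode complex I subunits, ND-B18 (0.857), ND-B8 (0.839) and ND-30 (0.832). Hsp60A was closest to epsilonCOP (0.797), Impbeta11 (0.776) and Nadk2 (0.766), and TFAM to CG6195 (0.732), Obp83a (0.679) and CG31142 (0.669). PolG1, the gene with the fewest reads, reached at most 0.463 (lncRNA:CR43247), followed by CG31960 (0.434) and CG6693 (0.414).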

How the data were processed

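Whole males gave 72 QuantSeq 3′ FWD (Lexogen) libraries, per the labels' protocols. Per the submitters' processing notes, the tools were FastQC 0.11.5, Trimmomatic 0.36, STAR 2.6 and HTSeq 0.11.0, with DESeq2 named and no version of it. Build, annotation and strand setting were not given in the sources used here. What was analysed is raw read counts per gene as the authors deposited them, and all 72 columns of the count table were identical to the files of single libraries. The deposited normalized table was left aside, since the counts it comes from were at hand. Of 17324 features, 17037 were matched to a symbol.

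Genes were kept by filterByExpr over the 36 combinations. The quasi-likelihood F test of edgeR 4.0.16 (R 4.3.3, TMM) was fitted to 12470 genes in 72 libraries with haplogroup, Y haplotype, their interaction and batch (35 residual degrees of freedom, biological coefficient of variation 0.285). On simulated counts it called 100% of the well-counted genes changed by 1 or 2 on the log2 scale in B38. The simulation held no smaller change and no shift between replicates or batches. It therefore does not bear on haplotype differences of the size reported here. Each haplotype was compared with the unweighted mean of the other 5. P-values are 2-sided and adjusted by Benjamini-Hochberg over all genes, called under 0.05, and measure the spread between separate crosses. In the Beijing and Ithaca combinations this spread includes any shared difference between replicates 1 and 2, which the reported fit does not model. CPM are scaled to the TMM-adjusted library size, given as mean ± SD, and log2 fold changes with the SE implied by F. Correlations use log2 CPM with a prior count of 2. Floors use 3 counts and cover counting error only. Alternatives were DESeq2 1.42.0, limma-voom (limma 3.58.1), RLE size factors, no low-count filter, no batch term, a replicate block, no interaction, batch 1 alone, and leaving out libraries. When 1 library was left out, the trended dispersion of the full fit was kept. Beside the 9 members, up to 4 called genes per list and test by smallest p are named, and the 3 genes most like each member. The members and lists were chosen with earlier results of these data known.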

Additional observations from a re-analysis of the deposited data

How the results depend on the processing

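The counts of called genes of the set were recomputed under 9 other fits and without each of the 72 libraries. For haplogroup, Y haplotype and interaction the count was 0 of 8 in every one of these, leaving out single libraries included (0 to 0), except with a replicate block, where Pink1 was called for haplogroup (1, F = 4.38, edgeR adjusted p = 0.0293) and Lon for Y haplotype (1, F = 5.26, 0.0192). The interaction count does not exist without interaction terms. Over all genes, haplogroup called 254 in the reported fit, 652 with DESeq2, 601 without a batch term, 620 without interaction terms, 1639 with the block, 26 in batch 1 alone and 110 without the 6 libraries above 20% in reads aligned to several places; Y haplotype called 517, 875 with DESeq2, 929 with the block and 97 in batch 1 alone. The single haplotype contrasts gave 1 call (Pink1 with B38), 2 without a batch term (with mtSSB), 0 in batch 1 alone, 0 without the 6 libraries above 20% in reads aligned to several places, 4 with the replicate block, and 0 to 2 without single libraries. The block added Lon and park with B38 and Lon with ZW139. Over all genes it called 3265 of 12470 for B38 and 368 for ZW139. Population contrasts gave 0 calls and 0 to 0 without single libraries, but 2 with the block (Pink1 and Lon between Beijing and Netherlands mitochondria). In that contrast the block called 1830 of 12470 genes. The batch term gave 1 call, 0 without the low-count filter (TFAM -0.18, 0.0883), 5 with the block, and 0 to 1 without single libraries. Over all genes the block called 4718 of 12470 for batch. With the block, the batch difference of Hsp60A was -0.16 and that of Lon -0.78, against 0.10 and 0.37 without it. By design, the batch term with the block is the difference between the batches less the replicate term. That term rests on the Beijing and Ithaca combinations, at 0.26 ± 0.12 for Hsp60A and 1.15 ± 0.14 for Lon. Why replicates differ within batch 1 was not tested.

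Whether the replicate numbers pair the libraries was not settled, since not every correlation was over 0.1 and within batch 1 the labels tie no replicate number to a batch or day. Over 630 pairs of combinations, deviations from the combination means of same-numbered libraries had correlations of -0.580 to 0.743 with a median of 0.098, and 314 were over 0.1. Among the 18 combinations wholly in batch 1 the median was 0.173, and 99 of 153 were over 0.1. In the block, the replicate term itself (2 minus 1) called 4904 of 12470 genes, and 4 of the 8, with Lon at 1.15 ± 0.14, park at 0.53 ± 0.09, mtSSB at 0.29 ± 0.11 and Pink1 at 0.24 ± 0.08 on the log2 scale.

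The count of correlated pairs, 15 of 28, was 14 to 18 under the other settings and 0 in batch 2 alone, a setting chosen after seeing the data, with 18 libraries. There the sign turned for Pink1 with Lon (-0.34) and mtSSB (0.27), park with TFAM (-0.14) and mtSSB (-0.46), Hsp60A with mtSSB (0.47), and Sod2 with TFAM (-0.12) and mtSSB (-0.36). In the second replicates of batch 1 the sign turned for Lon with Hsp60A (-0.653, against 0.306 over all libraries) and with Pink1 (-0.321, against 0.416). The other pairs of the 15 kept their sign in those libraries. Depth limits PolG1 most, with 4 reads in its lowest library.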
